A study of Sus scrofa with 6 samples.

Results

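The 9 genes described here encode the transcription factors that set and hold muscle identity. They are the 4 myogenic regulatory factors *MYOD1*, *MYF5*, *MYF6* and *MYOG*, the 3 MEF2 factors *MEF2A*, *MEF2C* and *MEF2D*, the satellite cell factor *PAX7* and the homeobox factor *SIX4*. They were taken by their pig Ensembl symbol from the table of raw read counts, and all 9 were found among its 30476 genes and among the 13402 that passed the filter on low counts. The samples were longissimus dorsi, a muscle of the back, from 3 UCP1-KI pigs and 3 WT pigs, all aged 6 months. UCP1-KI pigs carry a knock-in of *UCP1*, the uncoupling protein of brown fat, directed to adipocytes, so that the muscle was studied as a tissue that the transgene does not target, and WT pigs carry no knock-in. The labels number the libraries 1 to 3 in each group and do not say whether each came from a separate animal. Each was treated here as 1 pig, and the p values measure only the spread between these samples, which may be technical. No gene of the name table has the symbol *UCP1*, so the genotype was not checked against its counts.

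Myogenic regulatory factors are basic helix-loop-helix (bHLH) proteins that pair with E proteins and bind E-box sequences in muscle genes. *MYF5* and *MYOD1* commit precursors to the muscle lineage, *MYOG* drives their differentiation into fibres, and *MYF6*, also called MRF4, is the member best known for its expression in mature fibres. MEF2 factors are MADS-box proteins that act with the myogenic factors and, in adult fibres, respond to calcium signals. *PAX7* marks satellite cells, the stem cells that lie along the fibre, and *SIX4* belongs to the sine oculis family of homeobox factors, which acts upstream of the myogenic factors.

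The libraries held between 30220951 and 35066624 counts on genes. The TMM factor, which scales each library to the others, was lowest in WT replicate 2 (0.781), where the 20 most abundant genes held 56.5% of the counts against 39.0% to 44.8% in the other 5 pigs. Transcripts of the muscle fibre were abundant in every pig, with 62041 to 117568 CPM (counts scaled to a TMM-adjusted total of 1000000 per pig) summed over the 6 fibre markers that had an identifier (*ACTA1*, *CKM*, *DES*, *NEB*, *TNNT3* and *TNNI2*). Summed fibroblast markers were at 250.4 to 443 CPM in UCP1 KI pigs and 748 to 1200 CPM in WT pigs, without overlap (exact permutation test, two-sided, p = 0.1, below which 3 pigs against 3 cannot go). Of the 7 tested, 4 were lower past the limits given below (57.1%, beside 8.19% of all genes called), namely *COL1A1*, *COL1A2*, *COL3A1* and *LUM*. The other 3 were not called, with log2 fold changes of -0.39 for *DCN*, -0.08 for *PDGFRA* and 0.17 for *DPT*. Without the 3 collagens, a choice made after the data were seen, the 4 remaining markers summed to 133 to 152 CPM in UCP1 KI pigs and 150 to 208 CPM in WT pigs, and the groups overlapped. Red blood cell markers were at 11.6 to 76.4 CPM and 106 to 181 CPM, also without overlap, and 1 of the 4 tested was lower past those limits (25.0% beside 8.19% of all genes). Since the tissue is a mixture of fibres and other cells, fewer cells of a type and less RNA per cell cannot be told apart in any value below. No result rests on comparing levels between genes, since no transcript lengths were used.

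No difference between UCP1 KI and WT muscle was found for any of the 9 factors beyond the spread between pigs. A gene was called when it had a p under 0.05 before adjustment (the nominal p of edgeR's quasi-likelihood test) together with a log2 fold change of more than 0.5 in size. By this rule 0 of the 9 were called, beside 8.19% of all genes tested. The groups overlapped for each of the 9, and 15.3% of all genes had no overlap. In a list of only 9 genes, counts of 0 are near these shares and do not set the factors apart from other genes. DESeq2 on the same genes also called 0 of the 9 beside 9.77% of all genes, and with either tool 0 had a nominal p under 0.05, beside 8.21% of all genes with edgeR. Among all genes, 0 had an adjusted p under 0.05 with edgeR (1100 had a nominal p under 0.05), and 127 did with DESeq2. The log2 fold change was above 0 for 6 factors and below 0 for 3, with a median of 0.27 beside -0.02 over all genes tested. When 1 pig was left out, this median lay between 0.05 (the value of *MYOD1*, without UCP1 KI replicate 2) and 0.37 (that of *MEF2A*, without WT replicate 1). Scaling by library size alone shifted the median change over all genes to 0.24 on the log2 scale and gave 929 higher and 195 lower genes in place of 515 and 582. With it, 8 factors were above 0 and their median was 0.51. It left 0 of the 9 called, as did leaving out WT replicate 2 or any 1 UCP1 KI pig, whereas 1 factor was called without WT replicate 1 (*MYOG*) and 1 without WT replicate 3 (*MYF6*). All 9 of the 95% intervals held 0, and 7 of them reached a change of 1 on the log2 scale in at least one direction, so that a 2-fold difference was not shown to be absent for these 7.

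**Figure D1:**
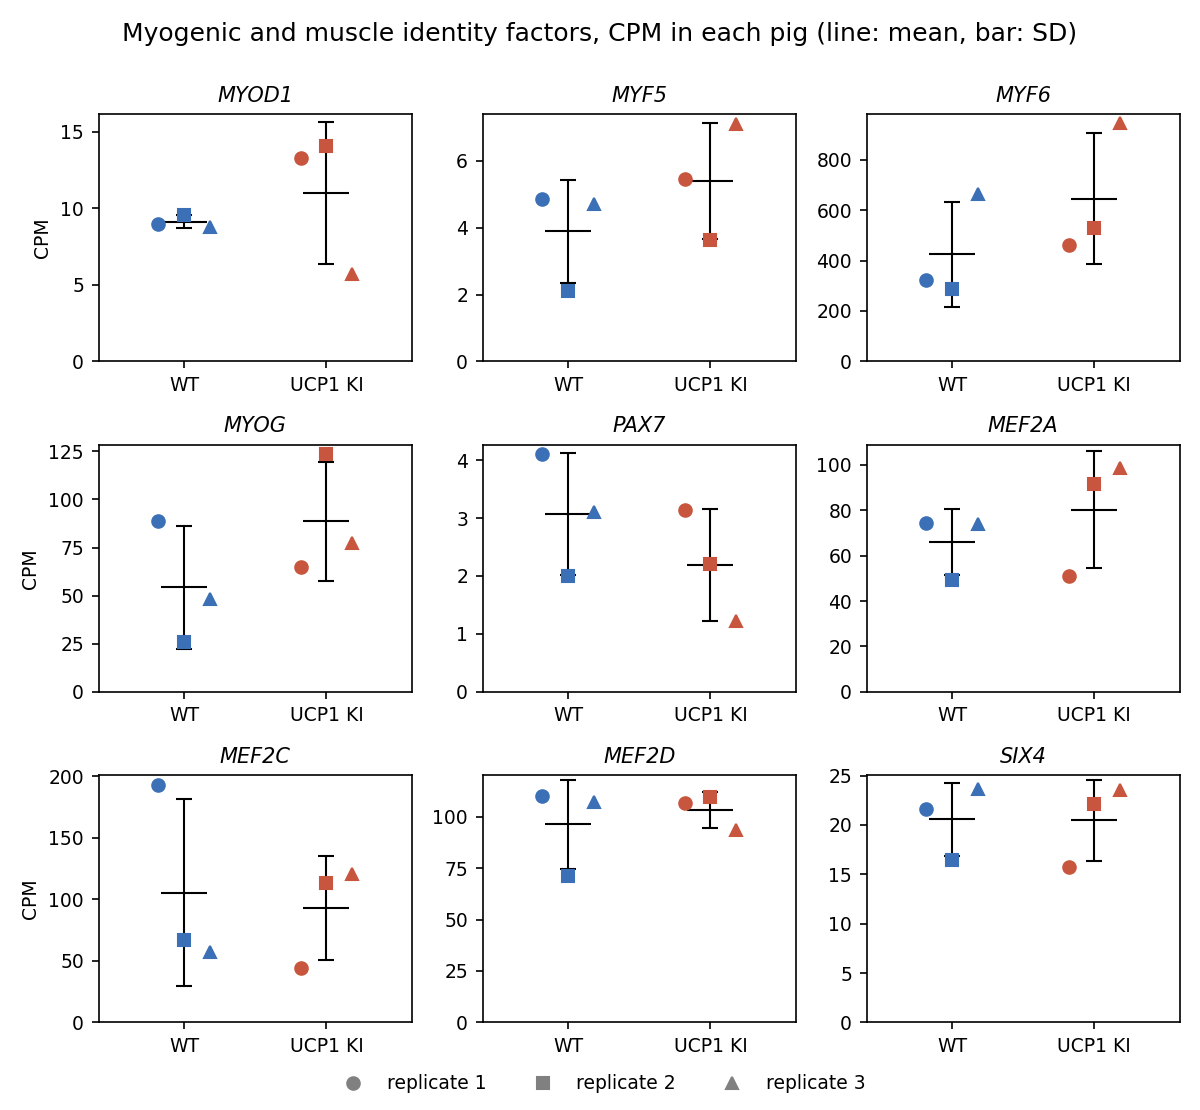
Level of each of the 9 factors in CPM, on linear axes from 0, in WT and UCP1 KI pigs. Each point is 1 pig with its replicate number as the symbol, the horizontal line is the group mean and the bar the SD (n = 3). In every panel the points of the groups overlap, as for *MYF6*, where WT replicate 3 at 663 CPM lay above UCP1 KI replicates 1 and 2.

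*MYOG* (ENSSSCG00000034654, chromosome 9, 113783233 to 113785312 in the RefSeq annotation of Sscrofa11.1) had the largest log2 fold change of the 9. It was measured at 64.9, 123 and 77.4 CPM in UCP1 KI replicates 1 to 3 and at 88.9, 25.8 and 48.3 CPM in WT replicates 1 to 3. WT replicate 1 lay above 2 of the UCP1 KI pigs, and WT replicate 2 was lowest. Means of 88.6 ± 30.8 CPM (SD, n = 3) for UCP1 KI and 54.3 ± 31.9 CPM (SD, n = 3) for WT gave a ratio of 1.63. For *MYOG* the log2 fold change was 0.70 (SE, the standard error, 0.46, 95% interval -0.37 to 1.78), with a nominal p of 0.169 and, after adjustment over all genes tested with edgeR, 0.701. Leaving out WT replicate 1 raised it to 1.25 with a nominal p of 0.0214 from edgeR, so that 1 of the 9 factors was then called, beside 4.15% of all genes called higher in that fit. Leaving out WT replicate 2 or UCP1 KI replicate 2, the pigs with the lowest and the highest *MYOG*, lowered it to 0.37 in either fit.

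*MYF6* (ENSSSCG00000026533) was measured at 463, 529 and 945 CPM in UCP1 KI pigs and 321, 288 and 663 CPM in WT pigs. Replicate 3 was the highest of its group in both, and the replicate numbers are not known to tie the pigs together. Its mean was 646 ± 261 CPM (SD, n = 3) for UCP1 KI against 424 ± 208 CPM (SD, n = 3) for WT, which is 1.52 times as high. Its log2 fold change was 0.61 (SE 0.44, 95% interval -0.41 to 1.62), with a nominal p of 0.203 and an adjusted p of 0.722 from edgeR's test. Without UCP1 KI replicate 3 it was 0.23, without WT replicate 2 it was 0.39, and with WT replicate 3 left out it rose to 1.09, with a nominal p of 0.0348 from edgeR. There *MYF6* was the single factor called, beside 5.41% of all genes called higher.

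*MYF5* (ENSSSCG00000000937) lies next to *MYF6* on chromosome 5, with 7359 bases between the genes (100753440 to 100755558 for *MYF5*, 100762918 to 100764771 for *MYF6*, RefSeq annotation of Sscrofa11.1). It was measured at 5.46, 3.64 and 7.12 CPM in UCP1 KI pigs and 4.85, 2.12 and 4.70 CPM in WT pigs, from 58 to 269 counts per pig. The highest pig was UCP1 KI replicate 3 and the lowest WT replicate 2, as for *MYF6*. *MYF5* had a log2 fold change of 0.47 (SE 0.41, 95% interval -0.49 to 1.43, nominal p of 0.286 and adjusted p of 0.771 from edgeR), and it was 0.18 without WT replicate 2 and 0.23 without UCP1 KI replicate 3.

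*MYOD1* (ENSSSCG00000013375, chromosome 2, 41422522 to 41424236) was measured at 13.3, 14.1 and 5.69 CPM in UCP1 KI pigs and 9.01, 9.60 and 8.81 CPM in WT pigs. The WT pigs lay within a factor of 1.09 of each other, and the UCP1 KI pigs lay on both sides of them. UCP1 KI replicate 3 was the lowest of the 6 pigs for *MYOD1* and the highest for *MYF5* and *MYF6*. The mean was 11.0 ± 4.64 CPM (SD, n = 3) for UCP1 KI against 9.14 ± 0.413 CPM (SD, n = 3) for WT. *MYOD1* had a log2 fold change of 0.27 (SE 0.36, 95% interval -0.57 to 1.11, nominal p of 0.475 and adjusted p of 0.856 from edgeR), and it ranged from 0.05 without UCP1 KI replicate 2 to 0.58 without UCP1 KI replicate 3, with 0.12 without UCP1 KI replicate 1.

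*PAX7* (ENSSSCG00000034627, chromosome 6, 77160827 to 77268626) rested on 46 to 149 counts per pig. It was at 3.14, 2.21 and 1.22 CPM in UCP1 KI pigs and at 4.10, 2.01 and 3.10 CPM in WT pigs. UCP1 KI replicate 3 had the lowest value and WT replicate 1 the highest, and the groups overlapped. At -0.49 (SE 0.45, 95% interval -1.55 to 0.56, nominal p of 0.312 and adjusted p of 0.782 from edgeR), its log2 fold change was the lowest of the 9, and it stayed within -0.84 to -0.20 over the fits that left out 1 pig. Of the 12 satellite cell markers listed beside *PAX7*, 11 were tested and 1 was called (9.09% beside 8.19% of all genes), while 5 had a log2 fold change above 0 and 6 below. The one called was *NOTCH3*, a Notch receptor also known from vessel walls, at 10.2, 10.8 and 15.1 CPM in UCP1 KI pigs and 41.2, 16.0 and 16.2 CPM in WT pigs. WT replicate 1 stood far above the rest, and the log2 fold change of *NOTCH3* was -1.02 (adjusted p of 0.603, edgeR). The summed level of these markers was 102 to 120 CPM in UCP1 KI pigs and 98.6 to 162 CPM in WT pigs, and their part in the values of *PAX7* was not tested.

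Of the MEF2 factors, *MEF2C* (ENSSSCG00000014149, chromosome 2, 96122407 to 96296927) varied most between pigs. It was at 44.4, 113 and 120 CPM in UCP1 KI pigs and 193, 66.9 and 57.0 CPM in WT pigs. WT replicate 1 stood above all other pigs, and the highest pig was 4.34 times the lowest. *MEF2C* had a log2 fold change of -0.19 (SE 0.56, 95% interval -1.48 to 1.11, adjusted p of 0.937 from edgeR), and it changed sign to 0.57 without WT replicate 1, 0.15 without UCP1 KI replicate 1 and 0.032 with library size alone. WT replicate 1 also had the highest summed level of 6 slow fibre genes, at 17898 CPM against 4336 to 12813 CPM in the other 5 pigs. The 12813 CPM was in UCP1 KI replicate 1, the pig with the lowest *MEF2C*. The part of the slow fibre genes in the values of *MEF2C* was not tested.

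*MEF2A* (ENSSSCG00000028771, chromosome 1, 138398270 to 138508639) was at 50.9, 91.4 and 98.7 CPM in UCP1 KI pigs and 74.5, 49.4 and 74.1 CPM in WT pigs. UCP1 KI replicates 2 and 3 were above every WT pig, whereas UCP1 KI replicate 1 was near the lowest of them. *MEF2A* had a log2 fold change of 0.28 (SE 0.32, 95% interval -0.46 to 1.03, nominal p of 0.402 and adjusted p of 0.825 from edgeR). It ranged from 0.10 without UCP1 KI replicate 3 to 0.53 without UCP1 KI replicate 1, was 0.11 without WT replicate 2 and 0.16 without UCP1 KI replicate 2, and was 0.55 with library size alone.

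*MEF2D* (ENSSSCG00000006482, chromosome 4, 93581563 to 93616980) was the steadiest of the MEF2 factors, at 106, 110 and 93.4 CPM in UCP1 KI pigs and 110, 71.4 and 107 CPM in WT pigs. WT replicate 2 was the 1 pig that lay apart. *MEF2D* had a log2 fold change of 0.10 (SE 0.25, 95% interval -0.48 to 0.69, adjusted p of 0.923 from edgeR), and -0.076 without that pig. *SIX4* (ENSSSCG00000005089, chromosome 1, 189670390 to 189682378) was at 15.8, 22.1 and 23.5 CPM in UCP1 KI pigs and 21.6, 16.5 and 23.6 CPM in WT pigs. The mean of *SIX4* was 20.5 ± 4.13 CPM (SD, n = 3) for UCP1 KI against 20.6 ± 3.67 CPM (SD, n = 3) for WT, and its log2 fold change was -0.01 (SE 0.26, 95% interval -0.61 to 0.60, adjusted p of 0.994 from edgeR) and 0.25 with library size alone. *MEF2D* and *SIX4* were the 2 factors whose intervals stayed within a change of 1 on the log2 scale.

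**Figure D2:**
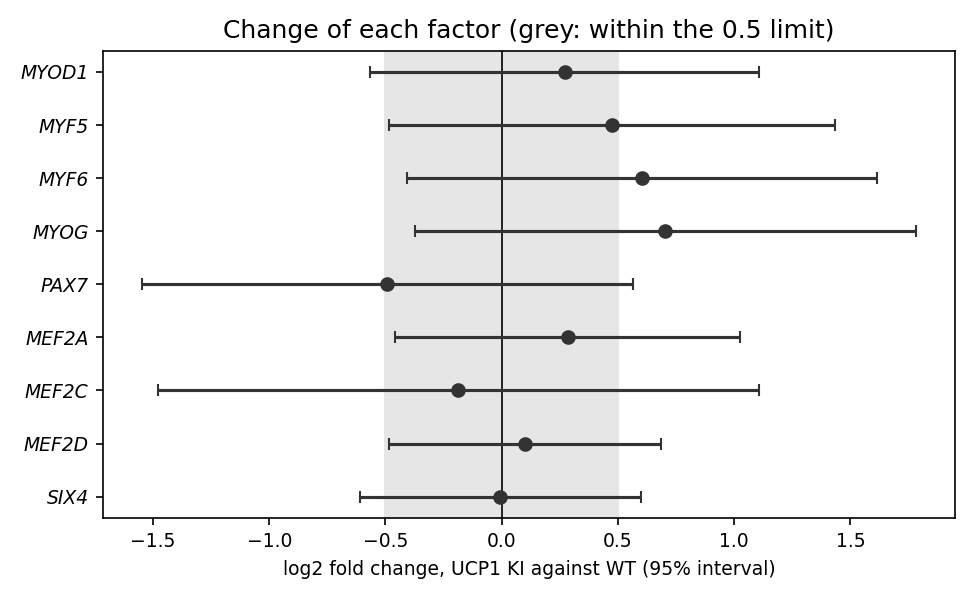
Log2 fold change of each factor, UCP1 KI against WT, from edgeR with its 95% interval. The grey band marks changes within the limit of 0.5, and every interval crosses 0, from *MYOG* at 0.70 to *PAX7* at -0.49.

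Several factors had their lowest or highest level in the same pig. How often this holds for other genes was not tested. WT replicate 2 had the lowest level of 5 of the 9 factors, namely *MYF5*, *MYF6*, *MYOG*, *MEF2A* and *MEF2D*, and the highest of none. It was also the pig with the lowest TMM factor (0.781). CPM are divided by this factor, so that it raised the values of WT replicate 2 over those scaled by library size alone. The part of its 20 most abundant genes in these values was not tested. UCP1 KI replicate 3 was highest for *MYF5*, *MYF6* and *MEF2A* and lowest for *MYOD1* and *PAX7*. WT replicate 1 was highest for *PAX7*, *MEF2C* and *MEF2D*.

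**Figure D3:**
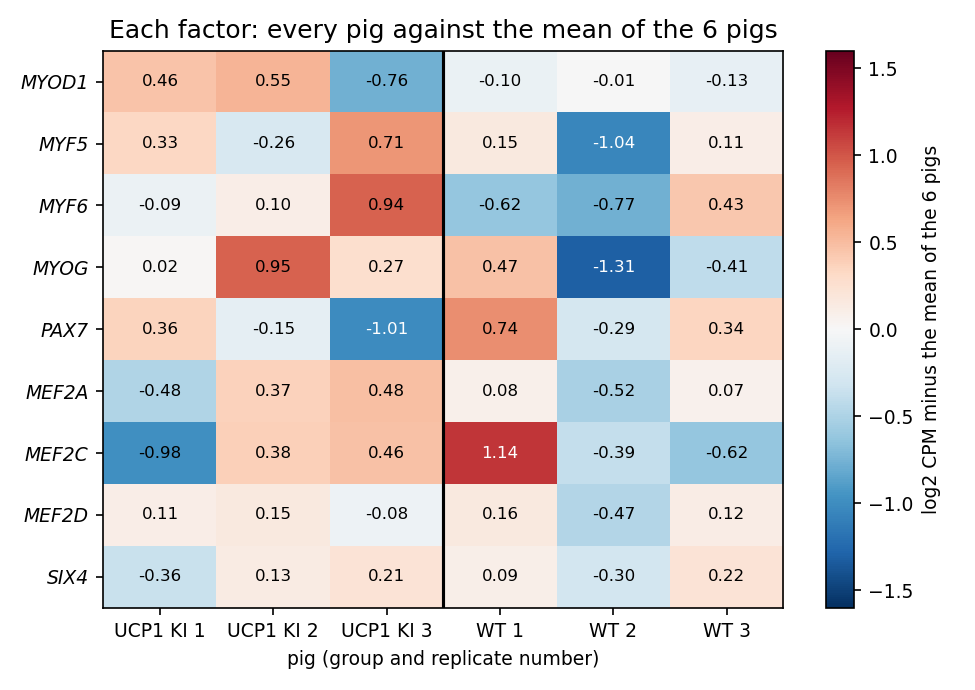
Log2 CPM of each factor in each pig, minus the mean of the 6 pigs for that gene, printed in the cell and shown as colour. UCP1 KI pigs are left of the line and WT pigs right of it. The lowest cell is *MYOG* in WT replicate 2, at -1.31, and the highest is *MEF2C* in WT replicate 1, at 1.14.

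The balance between factors within a pig, which does not depend on the scaling of libraries, was compared for all 36 pairs as the difference of their log2 CPM. *MYF5* minus *PAX7* was the 1 pair without overlap between the groups, at 0.80, 0.72 and 2.55 for UCP1 KI against 0.24, 0.08 and 0.60 for WT. The mean difference between the groups was 1.05 on the log2 scale and each of the 3 UCP1 KI pigs lay above the 3 WT pigs (exact permutation test, two-sided, p = 0.1, adjusted p = 0.831 over the 36 pairs). UCP1 KI replicate 3 lay far above the other pigs in this pair, and the mean difference leaned on it. When groups do not differ, a pair separates in this way with a probability of 0.1. Finding 1 such pair among 36 is no more than that gives. With 3 pigs against 3, p = 0.1 is the smallest the exact permutation test allows, so that no pair could have passed 0.05. *MYF6* minus *MYOG* was at 2.84, 2.10 and 3.61 for UCP1 KI against 1.85, 3.48 and 3.78 for WT, so that the order of the pigs for these factors differed. Over the 6 pigs, *MEF2A* and *SIX4* had the highest Pearson r of any pair of the 9, at 0.92, and *PAX7* and *MYF6* the lowest, at -0.53, as a description of 6 libraries that share their scaling.

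The genes whose log2(CPM + 1) over the 6 pigs was most like that of *MYOG* were *TENT5B* (r = 0.991), *CXCR4* (r = 0.991) and *WWP2* (r = 0.990), out of 11302 genes with a symbol. For *MYF6* they were *AAAS* (r = 0.996), *CACFD1* (r = 0.994) and *GCLM* (r = 0.992). None of these 6 genes was called, which their likeness to the uncalled *MYOG* and *MYF6* made likely beforehand. Over 6 pigs and so many genes, high r values arise for any factor. The best r ranged from 0.985 for *MEF2A* to 0.997 for *MEF2C*.

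Genes that act around the 9 factors were counted in 4 lists of 73 symbols in all, of which 63 could be tested. Called were 3 of them, or 4.76% beside 8.19% of all genes, 1 higher and 2 lower in UCP1 KI pigs, and 6 (9.52%) had no overlap between the groups beside 15.3% of all genes. The median log2 fold change over the 63 was -0.21, and 0.055 with library size alone, beside 0.24 over all genes. With library size alone 2 were called higher and 0 lower (3.17% beside 8.39% of all genes). The share lay above that of all genes with DESeq2, which called 2 higher and 6 lower (12.7% beside 9.77%), with the replicate number as a block (7 of 63 beside 8.31%), without WT replicate 2 (7 of 63 beside 5.19%), without UCP1 KI replicate 1 (9.52% beside 6.74%) and with all genes that had any count (10.3% of 68 beside 6.78%). Whether the lists were called less or more often than all genes therefore depended on the fit.

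Of the 14 upstream regulators, among them relatives of *SIX4* and their EYA coactivators, 12 were tested and 0 were called, beside 8.19% of all genes. Their median log2 fold change was 0.12, beside -0.02 over all genes. With library size alone it was 0.39, beside 0.24 over all genes. The highest was *LBX1*, a homeobox factor of migrating muscle precursors, at 7.21, 9.05 and 8.26 CPM in UCP1 KI pigs and 5.87, 2.37 and 6.57 CPM in WT pigs. All 3 UCP1 KI pigs were above every WT pig, and its change of 0.73 on the log2 scale (SE 0.39) had a nominal p of 0.104 from edgeR. WT replicate 2 lay far below the rest, and the other WT pigs were close to UCP1 KI replicate 1. The lowest was *EYA1*, a coactivator of sine oculis homeobox proteins, at -0.58 (SE 0.43, nominal p of 0.219 and adjusted p of 0.731 from edgeR). It was at 4.01, 1.54 and 4.82 CPM in UCP1 KI pigs and 5.84, 4.64 and 4.97 CPM in WT pigs, with UCP1 KI replicate 2 far below the rest. *PAX3* and *TCF21* did not pass the filter.

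Among the E proteins and the inhibitors of bHLH factors, 14 of 17 were tested. Of these, 2 were called, both lower in UCP1 KI pigs, beside 8.19% of all genes called. *ID1*, which binds E proteins and keeps them from the myogenic factors, was at 50.2, 36.5 and 36.2 CPM in UCP1 KI pigs and 123, 59.6 and 59.3 CPM in WT pigs. All UCP1 KI pigs were below all WT pigs, and WT replicate 1 stood far above the rest. *ID1* had a log2 fold change of -0.98 (SE 0.35), a nominal p of 0.0240 and, adjusted over all genes, 0.583 from edgeR. Without WT replicate 1 it was -0.54 and not called. The call was also lost at -0.91 without UCP1 KI replicate 2, -0.90 without UCP1 KI replicate 3 and -0.81 with library size alone.

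*MSC*, which encodes musculin, a bHLH repressor of myogenic factor activity, was at 1.97, 0.841 and 1.35 CPM in UCP1 KI pigs and 5.10, 2.08 and 2.47 CPM in WT pigs, from 30 to 185 counts per pig. The groups did not overlap. Its change was -1.22 on the log2 scale (SE 0.50), with a nominal p of 0.0413 and, adjusted over all genes, 0.603 from edgeR, and it was -0.71 and not called without WT replicate 1. For *MSC* the value was -0.96 without UCP1 KI replicate 2, -1.20 without UCP1 KI replicate 3 and -1.07 with library size alone, with no call in any of these fits. Of the 7 fibroblast markers tested, the 4 named above were lower in the same pigs, and their part in the values of *ID1* and *MSC* was not tested. *TWIST1* had no identifier, and *TWIST2* and *MDFI* did not pass the filter.

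All 20 partners and repressors of MEF2 factors were tested, and 0 were called, beside 8.19% of all genes. Their median log2 fold change was -0.24, with 13 below 0, beside a median of -0.02 over all genes. With library size alone it was -0.0039, with 10 below 0, beside 0.24 over all genes. The values lay between *HDAC9*, a class II histone deacetylase that represses MEF2 activity, at -1.49 and *VGLL4*, a cofactor of TEAD proteins, at 0.68. *HDAC9* was at 7.60, 2.24 and 0.979 CPM in UCP1 KI pigs and 10.4, 13.6 and 6.30 CPM in WT pigs. UCP1 KI replicate 1 lay above WT replicate 3, and the nominal p of *HDAC9* was 0.0663 from edgeR. *VGLL4* was at 10.5, 11.3 and 6.46 CPM in UCP1 KI pigs and 1.87, 8.07 and 7.77 CPM in WT pigs, with a nominal p of 0.241 from edgeR. WT replicate 1 lay far below the rest, and UCP1 KI replicate 3 lay below the other WT pigs.

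Of the 22 differentiation and fusion targets of the myogenic factors, 17 were tested and 1 was called, beside 8.19% of all genes. *CDKN1A*, the cell cycle inhibitor p21 and a target of MYOD1 and of other factors, was higher in UCP1 KI pigs, at 162, 294 and 1025 CPM against 59.8, 84.5 and 149 CPM in WT pigs. All UCP1 KI pigs were above all WT pigs, although UCP1 KI replicate 1 and WT replicate 3 were close. For *CDKN1A* the change was 2.33 on the log2 scale (SE 0.71), with a nominal p of 0.0115 and, adjusted over all genes, 0.583 from edgeR. It was 1.22 without UCP1 KI replicate 3, the pig with the lowest *MYOD1*, and the gene was called in each of the 6 fits that left out 1 pig. The median over the 17 genes was -0.30, and 12 of them had a log2 fold change below 0, against -0.030 and 10 with library size alone. The median over all genes was -0.02, and 0.24 with library size alone. *MYMX*, *CHRNB1*, *CHRND* and *CHRNG* had no identifier, and *MYL4* did not pass the filter.

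**Figure D4:**
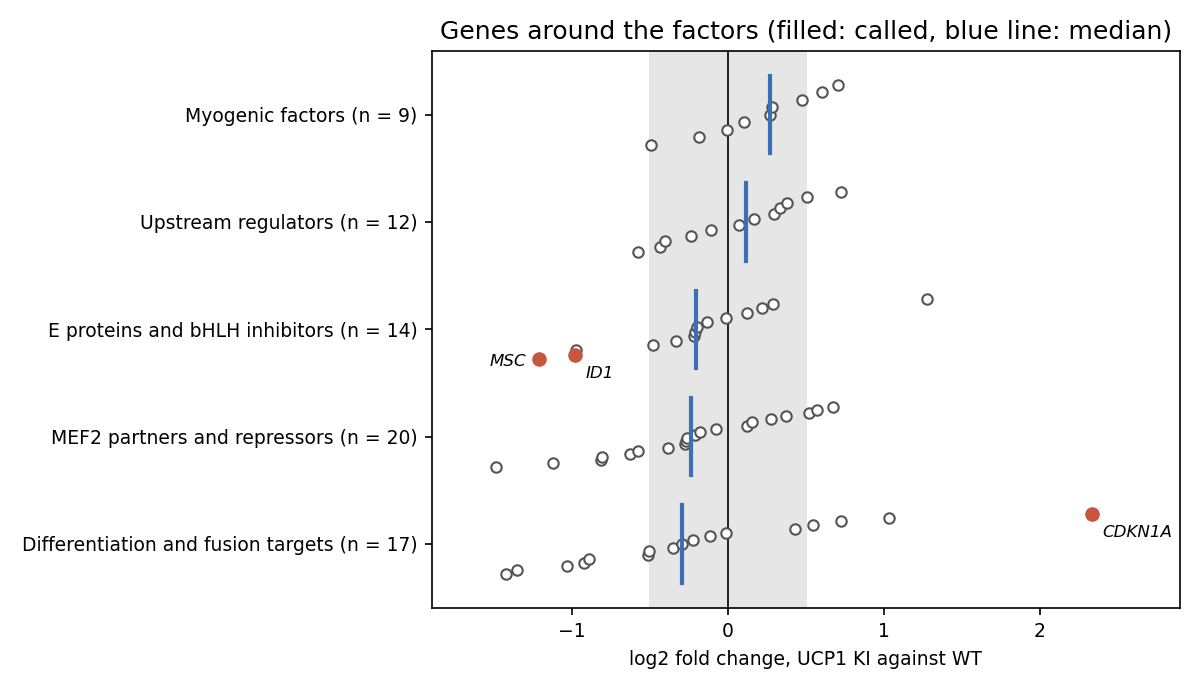
Log2 fold change, UCP1 KI against WT, of the 9 factors and of the tested genes of the 4 lists around them, with 1 point per gene and the points spread vertically by rank within a list. Filled points are called genes, the blue line is the median of a list, and the grey band marks changes within 0.5. *CDKN1A* at 2.33, *ID1* at -0.98 and *MSC* at -1.22 are the called genes, and none is among the 9 factors.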

How the data were processed

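The authors extracted total RNA from longissimus dorsi, prepared mRNA libraries and sequenced paired ends. Per the labels and the methods of the study, reads were checked with FastQC 0.11.2, trimmed with Trimmomatic 0.36, mapped with HISAT2 2.0 and computed with StringTie 1.3.3b, and the submitters' processing notes name the build Sscrofa11.1. The program that counted the reads, the annotation release, the strand setting and the sex of the pigs are not given in the sources used here. Read counts per Ensembl gene, not normalized, were deposited with 1 column for each pig.

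edgeR 4.0.16 (R 4.3.3) was run on these counts with filterByExpr, TMM factors and its quasi-likelihood F test, with condition as the only term and both directions tested. Genes were called by 2 limits taken from the study, 0.05 on the nominal p and 0.5 on the size of the log2 fold change. Adjusted p values are Benjamini-Hochberg over all genes tested. The standard error is the log2 fold change divided by the square root of F, and intervals use the degrees of freedom of the fit. The procedure was tested on simulated data. Alternatives were DESeq2 1.42.0, other scalings and filters, the replicate number as a block, no fold change limit and each pig left out.

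Symbols came from a table of Ensembl names, and positions, matched by symbol for all 9 factors, from the RefSeq annotation of Sscrofa11.1. The factors and gene lists were chosen with earlier results of these data known. Besides the 9 factors, the text names the called genes of each list or, where there were none, the highest and lowest, and for the factor with the smallest p and that with the highest CPM, which is not corrected for transcript length and served only to choose it, the 3 genes most like it. *NOTCH3*, the fibre, fibroblast and other cell type markers and genes that could not be tested were named after their values were seen. Marker lists of adipocytes, leukocytes, endothelial, smooth muscle and Schwann cells and of fast fibres overlapped between the groups in their summed level. Within them, 1 endothelial marker (*TEK*, log2 fold change 1.20, no overlap) and 1 leukocyte marker (*CD3E*, 1.84, with overlap) were called higher. These were 16.7% and 14.3% of the markers tested in their lists, beside 8.19% of all genes. *CD3E* was at 2.91, 7.04 and 1.03 CPM in UCP1 KI pigs and 1.27, 0.621 and 1.17 CPM in WT pigs, highest by far in UCP1 KI replicate 2. All 7 leukocyte and all 6 endothelial markers tested were above 0 (medians 0.79 and 0.10), and all 6 adipocyte and all 6 smooth muscle markers were below 0 (medians -0.96 and -0.84). Single pigs stood out in these sums. The leukocyte sum was 84.3 CPM in UCP1 KI replicate 2 and 23.5 to 53.5 CPM in the other pigs. For adipocytes it was 367 CPM in WT replicate 2 and 63.5 to 213 CPM in the other pigs.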

Additional observations from a re-analysis of the deposited data

How the results depend on the processing

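The number of called factors was 0 with DESeq2, median-of-ratios factors, library size alone, all genes with any count, a minimum of 10 counts in each pig, the replicate block and no fold change limit, and 0 to 1 when 1 pig was left out. It was 1 without WT replicate 1 (*MYOG*) and 1 without WT replicate 3 (*MYF6*). Over all genes, 1097 were called, and 678 to 1541 when 1 pig was left out, the lowest without UCP1 KI replicate 2. For the genes around the factors, 3 were called, and 8 with DESeq2 (12.7% beside 9.77% of all genes), 7 with all genes with any count (10.3% beside 6.78%), 7 with the replicate block (of 63, beside 8.31%), and 2 to 7 when 1 pig was left out. The causes were not tested. Of the 108 values of the 9 factors under the alternatives, 97 kept their direction and stayed uncalled, though some crossed 1 of the 2 limits, 9 changed sign and 2 were newly called. *SIX4* changed sign to 0.25 with library size alone and 0.012 with all genes with any count, and ranged from -0.14 to 0.15 when 1 pig was left out. *MEF2C* changed sign to 0.032 with library size alone and ranged from -0.48 to 0.57 when 1 pig was left out, and *MEF2D* from -0.076 (without WT replicate 2) to 0.21.

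The labels do not say whether the replicate numbers pair the pigs, and the data did not settle it. The deviations of same-numbered pigs from their group means correlated at 0.00, 0.09 and 0.28 over genes. UCP1 KI replicate 1 correlated best with WT replicate 2 (0.13) and UCP1 KI replicate 2 with WT replicate 1 (0.10). UCP1 KI replicate 3 correlated best with WT replicate 3. With the replicate block, 1114 genes, 0 of the factors and 7 of the genes around them were called. The SE of *MYF6* was then 0.27 in place of 0.44, with a nominal p of 0.0611 from edgeR. That of *MYOG* was 0.54 in place of 0.46. At 3 pigs a group, differences of the size seen for *MYOG* and *MYF6* were within the spread between pigs, and *PAX7* rested on the fewest counts.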
